A study of Mus musculus with 19 samples.

Results

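The Rab GTPases of retinal microglia were compared between 6 samples taken 3 days after laser treatment (CNV d3) and 6 samples from unlasered eyes (control). Members were all protein-coding genes whose symbol is Rab followed by a number and at most a letter and a further digit, a rule that uses names and no measured value. It took 57 of the 27299 genes in the deposited table, of which 16070 are protein-coding. Rab GTPases are small membrane switches. An exchange factor loads a Rab with GTP on its own compartment, the loaded Rab recruits effectors that move, tether or fuse the vesicle, and a GTPase-activating protein of the TBC family turns it off. In macrophages and microglia, Rab proteins are known for carrying phagosomes to lysosomes, recycling surface receptors and releasing stored vesicles.

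Choroidal neovascularization (CNV), the growth of choroidal vessels into the retina, was induced with 6 laser burns per eye, and retinal microglia were sorted by flow cytometry for RNA-seq. The labels name C57BL/6J mice of 8 weeks and cells positive for CD45, CD11b and CX3CR1 and negative for Ly6C and Ly6G. The methods name Cx3cr1 GFP/+ mice on that background, in which 1 Cx3cr1 allele is replaced by GFP, and cells low for CD45. Control and CNV d3 mice shared the strain and age. A scheme in the paper that names another age describes Cx3cr1CreER reporter mice used for staining. Nothing in the labels says that the samples of a group came from separate mice, so p-values measure the spread between these samples, which may be technical in part.

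Gene reads totalled 10963178 to 22335233 per control sample, with control 6 the shallowest, and 23532260 to 29523018 per CNV d3 sample. Genes with reads numbered 15076 to 17224 per control sample and 18276 to 19116 per CNV d3 sample. Fewer genes were thus detected in every control, and the part of this in genes with 0 reads in control was not tested. All 6 control samples and CNV d3 4 were listed in 2 parts, while the other CNV d3 samples were listed in 1. CNV d3 4, 5 and 6 held 1239 to 1449.8 normalized counts of the Y-linked gene Ddx3y, which had 0 reads in the other 9 samples. Xist, which is transcribed from the inactive X chromosome of females, had at most 0.866 in these 3 samples, 3116 to 5245 in CNV d3 1 to 3 and 6522 to 9795 in control. Sex was therefore mixed in CNV d3 and not in control, and for CNV d3 4 to 6 it cannot be told apart from the laser treatment. Each called member below is therefore also given without them, or with Ddx3y reads as a covariate. All 10 microglia markers were detected. They summed to 1424250 to 1585530 normalized counts in control and 746557 to 1137680 in CNV d3, and 8 of the 10 fell. Of 10 monocyte and macrophage markers 5 rose, from a sum of 471 to 3127 up to 1724 to 4979, and Ly6c2 and F10 were at 0 in every control. Of 10 genes of dividing cells 10 rose, from 159 to 1269 up to 9445 to 23704. In the other lists, 2 of 10 neuron markers, 2 of 10 Mueller glia markers, 1 of 7 endothelial markers and 1 of 2 mast cell markers in the table rose, 1 Mueller glia and 1 endothelial marker fell, and none of the 10 rod and 8 pigment epithelium markers passed the test. The rod sum was 935 to 7515 in control and 669 to 13485 in CNV d3, and the pigment epithelium sum was 2.15 to 264 and 73.9 to 301. The part of other cells in the results on Rab genes was not tested, and in bulk samples fewer cells of a type cannot be told apart from less RNA per cell.

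RefSeq promoters, running from 250 bases before to 50 bases after a gene start, were matched for 47 of the 57 members, not for Rab7b, with 59 promoters in all. Those of Rab3d, Rab32 and Rab39 are shown because these 3 genes have the lowest adjusted p among members with a matched promoter, with Rab3d and Rab32 higher and Rab39 lower in CNV d3. All lie on the minus strand of GRCm38.p6, Rab3d at chr9:21918134-21918433, Rab32 at chr10:10558158-10558457 and Rab39 at chr9:53706183-53706482, and are written 5′ to 3′ along the gene. Capitals mark the GC box GGGCGG or, in Rab32, the PU.1 motif GAGGAAGT, each on either strand.
Rab3d: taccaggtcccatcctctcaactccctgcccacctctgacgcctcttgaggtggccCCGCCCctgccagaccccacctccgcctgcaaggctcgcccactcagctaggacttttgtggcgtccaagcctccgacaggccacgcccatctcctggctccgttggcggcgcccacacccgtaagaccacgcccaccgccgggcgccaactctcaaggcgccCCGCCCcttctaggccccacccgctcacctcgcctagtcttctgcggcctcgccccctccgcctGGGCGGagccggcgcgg
Rab32: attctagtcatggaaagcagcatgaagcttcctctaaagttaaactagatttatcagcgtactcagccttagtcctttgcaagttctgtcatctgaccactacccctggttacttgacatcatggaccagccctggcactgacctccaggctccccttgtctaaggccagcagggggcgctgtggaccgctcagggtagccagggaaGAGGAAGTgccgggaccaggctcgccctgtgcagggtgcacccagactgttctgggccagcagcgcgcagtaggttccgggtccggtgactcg
Rab39: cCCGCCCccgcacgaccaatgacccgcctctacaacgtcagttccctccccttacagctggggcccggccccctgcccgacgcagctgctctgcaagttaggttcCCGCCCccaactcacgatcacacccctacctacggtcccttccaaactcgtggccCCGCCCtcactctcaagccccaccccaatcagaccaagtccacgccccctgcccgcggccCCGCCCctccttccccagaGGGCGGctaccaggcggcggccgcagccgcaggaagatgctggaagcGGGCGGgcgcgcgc
The Rab3d promoter holds 3 GC boxes and 26 CpG at 71.0% G and C, and the Rab39 promoter 6 GC boxes and 27 CpG at 70.7%. The Rab32 promoter differs from both, with no GC box, 10 CpG at 57.3% and 1 PU.1 motif. Over all 32851 promoters the median was 52.7% and 7 CpG, and over the 59 member promoters 61.3% and 20 CpG. The GC box was found in 35.7% of all promoters and in 41 of the 59 of members. The PU.1 motif, the core of the site of the myeloid factor PU.1, was found in 3.20% of all promoters and in those of Rab2b and Rab32 among members. The E-box CACGTG, which TFEB and related factors can bind, was in 7.15% of all promoters and in 6 of members, and the AP-1 motif TGANTCA in 7.81% and in 3, both searched on both strands and absent from these 3 windows. A match is a description of the letters and not of a bound site.

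The most abundant members in resting microglia were housekeeping Rab genes of the secretory and endocytic routes. Per kb of exon, the scale on which genes can be set side by side, Rab2a led with 1868 ± 134 normalized counts per kb (SD, n = 6), followed by Rab1a with 1823 ± 223, Rab11a with 1577 ± 197, Rab7 with 1531 ± 81.1 and Rab8b with 1505 ± 169.7. The SD ranges of neighbours in this order overlapped. Rab1a and Rab2a act between endoplasmic reticulum (ER) and Golgi, Rab11a in recycling endosomes, Rab7 on late endosomes and Rab8b in delivery to the plasma membrane. These 5 genes held 40.3% of the summed level per kb of all 57 members in control and 39.1% in CNV d3.

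Among the top 5, only Rab7 passed the test between the groups. The log2 fold change was -0.09 (SE 0.09) for Rab2a, 0.20 (SE 0.09) for Rab1a, 0.12 (SE 0.10) for Rab11a and -0.01 (SE 0.09) for Rab8b, whose sign depended on the scaling. In CNV d3 the order changed. Rab32 moved from rank 7 to rank 1 with 2111 ± 367 normalized counts per kb, next to Rab1a with 2097 ± 199.9, and the SD ranges of both overlapped. Summed over all members, the level per kb was 19133 to 22768 in control and 20556 to 24626 in CNV d3, and the groups overlapped. Of the 57 members, 17 had a control mean of at least 1000 normalized counts and 9 a mean under 10.

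**Figure D1:**
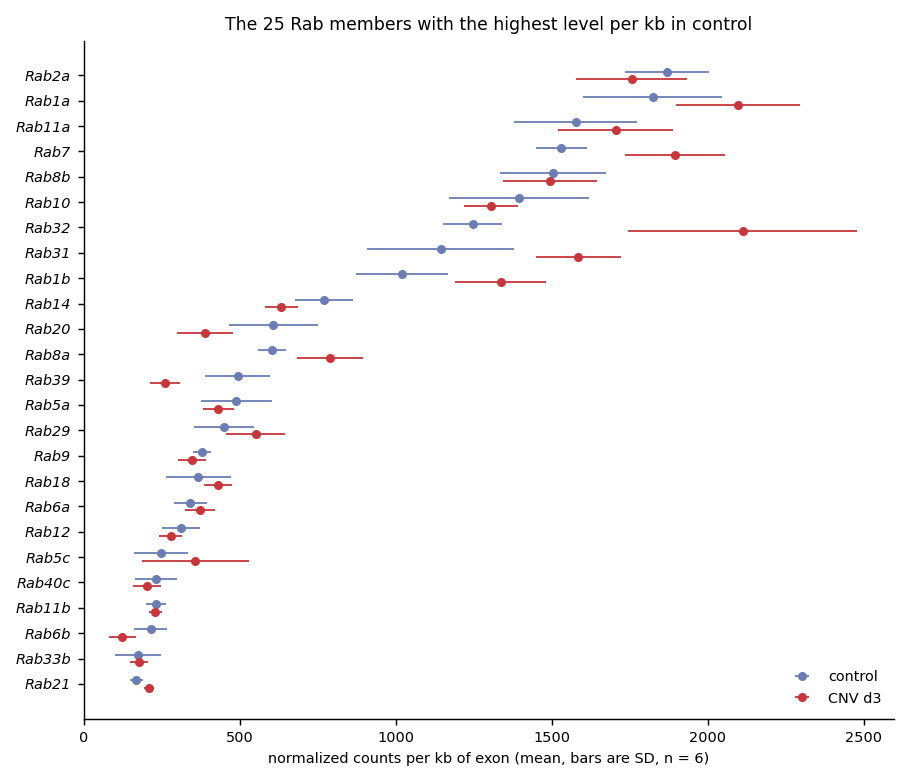
Level of the 25 most abundant Rab members in normalized counts per kb of exon (x axis), as mean and SD of the 6 control samples (blue) and the 6 CNV d3 samples (red). Rab2a led in control with 1868, and Rab32 rose from 1247 to 2111 to lead in CNV d3.

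Differences were tested gene by gene across the 27299 genes with limma, on the log2 of the normalized count plus 1, and a gene was called at a Benjamini-Hochberg adjusted p under 0.05. Of the 57 members 10 rose (17.5%), beside 8.29% of all genes, and 4 fell (7.02%), beside 4.57% of all genes. The counts by site of action below rest on few members each and stand beside these same shares. A low filter of at least 10 normalized counts in at least 6 samples was passed by 46 members, and the remaining 11 were not called. The filter can be passed through 1 group alone, so members that pass it are not all members. When only the 12753 genes over this filter were tested, 11 members rose beside 16.9% of genes and 4 fell beside 12.1%. The median log2 fold change was 0.26 over the members and 0.15 over all genes, and 0.12 and 0.10 over the filter. A DEG had in addition an absolute log2 fold change above 1.5. The 4 DEG among members, Rab7b, Rab3d, Rab3b and Rab36, were all higher in CNV d3, beside 3.91% of all genes, and no member was a DEG in the other direction, beside 1.07%. Every CNV d3 value lay above every control value for 4 members, Rab7b, Rab3d, Rab32 and Rab7, beside 4.64% of all genes, and below for 2, Rab39 and Rab14, beside 2.83%.

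**Figure D2:**
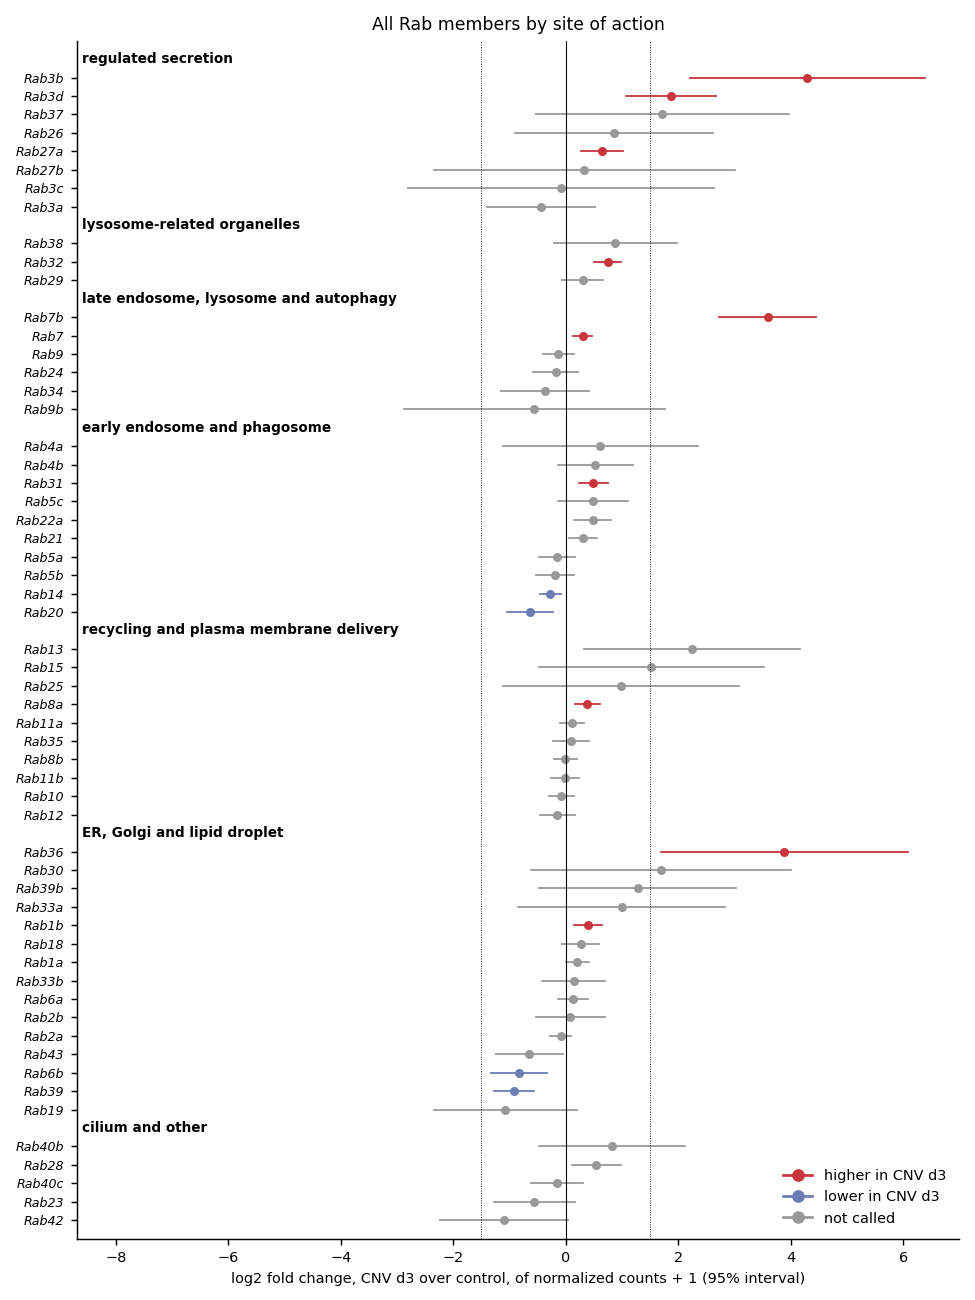
Log2 fold change of CNV d3 over control for the 57 Rab members (points) with the 95% interval from limma (lines), grouped by site of action, with red for higher, blue for lower and grey for not called, and dotted lines at 1.5 and -1.5. The 4 DEG, Rab7b, Rab3d, Rab3b and Rab36, lie to the right of 1.5, and members with few reads have wide intervals.

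Of the 6 members of late endosomes, lysosomes and autophagy, 2 rose and none fell. Rab7b, which acts between late endosomes and the trans-Golgi network and is known for limiting Toll-like receptor signals in macrophages, changed most among members detected in every sample. Its normalized counts were 29.0, 201, 76.6, 76.1, 63.2 and 171 in control 1 to 6 and 835, 1151, 1664, 595, 1179.8 and 1104 in CNV d3 1 to 6. The groups did not overlap, and CNV d3 4 was the lowest and CNV d3 3 the highest of the lasered samples. The mean rose 10.6-fold, with a log2 fold change of 3.60 (SE 0.40, 95% interval 2.73 to 4.46) and a limma adjusted p of 6.1e-05. Without CNV d3 4 to 6 the log2 fold change was 3.77 with a limma adjusted p of 0.0106, and the gene was called in all 25 alternative fits.

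Rab7 itself, which drives fusion of late endosomes with lysosomes, was already abundant and rose by less. Its normalized counts were 3699 at the lowest, 4046 at the median and 4299.6 at the highest in control, and 4364, 4920.0 and 5564 in CNV d3. The groups did not overlap, but the gap between them was small beside their spread. The resulting log2 fold change was 0.31 (SE 0.08, limma adjusted p = 0.0186). It was 0.33 without CNV d3 4 to 6 (limma adjusted p = 0.0158), and the call was lost with Ddx3y reads as a covariate (limma adjusted p = 0.0643). The share of Rab7b in the summed level per kb of Rab7b and Rab7 was 0.44% to 2.58% in control and 7.15% to 15.3% in CNV d3, so the 2 sets of values did not overlap. The other members of this group, Rab9, Rab9b, Rab24 and Rab34, were not called, and 62.4% of the Rab24 exon length is shared with Prelid1 on the opposite strand. Where counting does not use the strand, a read in a shared stretch cannot be placed on 1 gene. Such reads may be missing from the count, and the level per kb may then be too low. Another gene also overlaps 75.4% of the Rab43 exon length, and Rab4b and Rab2b share much of theirs with other genes.

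Of the 8 members of regulated secretion, 3 rose and none fell, beside 8.29% and 4.57% of all genes. Rab3d, which sits on secretory granules and vesicles of exocrine and mast cells and controls their release, had 276, 231, 305, 172, 46.2 and 212 normalized counts in control 1 to 6. In CNV d3 1 to 6 it had 584, 658, 922, 529, 541 and 814. The lowest lasered sample lay above the highest control, and control 5 lay far below the other controls. The mean rose 3.26-fold, from 207 ± 91.8 to 674 ± 160.1 (SD, n = 6), with a log2 fold change of 1.88 (SE 0.38, 95% interval 1.07 to 2.68) and a limma adjusted p of 0.00379. A two-sided exact permutation test over all 924 labellings of the samples as 6 and 6 gave p = 0.00216, the smallest it can give. Any gene whose groups do not overlap gets this value, so it adds nothing to the lack of overlap. Rab3d was called in each of the 12 fits that left out 1 sample, with a log2 fold change of 1.49 without control 5 and 1.78 to 2.03 otherwise, so that it is no DEG without control 5. Without CNV d3 4 to 6 the log2 fold change was 1.98 and the call was lost (limma adjusted p = 0.104), while with Ddx3y reads as a covariate it was kept (limma adjusted p = 0.0230).

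The other Rab3 genes had few reads. Rab3b had 48.3 normalized counts in control 1 and 0 in the other 5 controls, against 24.0 to 46.5 in all 6 CNV d3 samples. The single control with reads exceeded every lasered sample, so the groups overlapped. The fitted log2 fold change was 4.29 (SE 0.98, limma adjusted p = 0.00891), on a scale where the pseudocount sets the size of a change from 0. Neither edgeR (adjusted p = 0.282) nor DESeq2 (adjusted p = 0.275) called it on the recovered reads, nor did limma without CNV d3 4 to 6 (adjusted p = 0.121). Rab3a, the Rab3 of synaptic vesicles, had 22.5 to 89.3 in control and 29.9 to 61.0 in CNV d3, with a log2 fold change of -0.45 (SE 0.45). Rab3c had 0 to 84.2 and 0 to 46.7, with a log2 fold change of -0.09 (SE 1.28), and in both groups replicate 4 was the highest. Rab3d thus held 21.5% to 77.6% of the summed Rab3 level per kb in control and 79.9% to 89.0% in CNV d3.

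Rab27a, which docks lysosome-related organelles and exosome-bearing endosomes at the plasma membrane, had a lowest, median and highest value of 442, 585 and 900.5 in control and 717, 983 and 1138 in CNV d3. Control 5 and control 3 lay above the lowest lasered sample, CNV d3 2. On the log2 scale the fold change was 0.64 (SE 0.18, limma adjusted p = 0.0264). When samples were dropped 1 at a time the call was kept in 3 of 12 fits, those without control 3, control 5 or CNV d3 2, with a highest limma adjusted p of 0.0666. It was also lost without CNV d3 4 to 6 (limma adjusted p = 0.310). Rab27b, Rab26 and Rab37 had 0 reads in 2 to 4 of the controls and were not called.

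Of the 3 members of lysosome-related organelles, Rab32 rose and Rab29 and Rab38 were not called. Rab32, which with its relative Rab38 builds melanosomes and in macrophages takes part in the defence against intracellular bacteria, had normalized counts of 2575, 3098, 2841, 3154, 2787 and 3046 in control 1 to 6. In CNV d3 1 to 6 it had 4591, 5188, 6324, 3727, 5133 and 4668. All lasered samples lay above all controls, again with CNV d3 3 highest and CNV d3 4 lowest. The mean rose 1.69-fold, with a log2 fold change of 0.74 (SE 0.11, 95% interval 0.50 to 0.99, limma adjusted p = 0.000527). Without CNV d3 4 to 6 it was 0.87 (limma adjusted p = 0.00372), and the gene was called in all 25 alternative fits. Rab29, the Rab tied to Lrrk2 at lysosomes, had 455 to 884 in control and 616 to 964 in CNV d3 with a log2 fold change of 0.30 (SE 0.17). Rab38 had 0 reads in all 6 controls and in 4 of the CNV d3 samples. The level of Rab32 per kb was 1247 ± 94.7 in control and 2111 ± 367 in CNV d3 (SD, n = 6). These 3 genes held 8.24% of the family level per kb in control and 11.6% in CNV d3.

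The marker sums of single lasered samples stand beside these genes as follows. CNV d3 3 had the highest values of Rab7b, Rab3d and Rab32, the highest monocyte and macrophage sum at 4979 normalized counts and the lowest microglia sum at 746557. CNV d3 6 had the next highest monocyte and macrophage sum at 4428 and the next highest Rab3d, but its Rab7b and Rab32 lay below those of 3 other lasered samples. The dividing cell sum was also highest in these samples, at 23704 in CNV d3 6 and 22236 in CNV d3 3. The rod sum was highest in CNV d3 4 at 13485 and CNV d3 6 at 11710. The mast cell sum, from Cpa3 and Kit, was 112 in CNV d3 3 and 173 in CNV d3 6, the samples with the highest Rab3d, at most 29.4 in the other CNV d3 samples and at most 2.02 in control. Nearly all of it was Kit, while Cpa3, a defining mast cell gene, had at most 5.19 and was at 0 in CNV d3 6. The other 4 genes of the mast cell list, Cma1, Mcpt4, Ms4a2 and Tpsb2, were absent from the table. The authors removed genes with 0 reads in all samples. A mast cell source of Rab3d was not tested. CNV d3 4, listed in 2 parts as all controls were, had the lowest values of these 3 genes and a monocyte and macrophage sum of 1897, while the lowest such sum, 1724, was that of CNV d3 1. The part of the listing in 2 parts in these values was not tested.

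**Figure D3:**
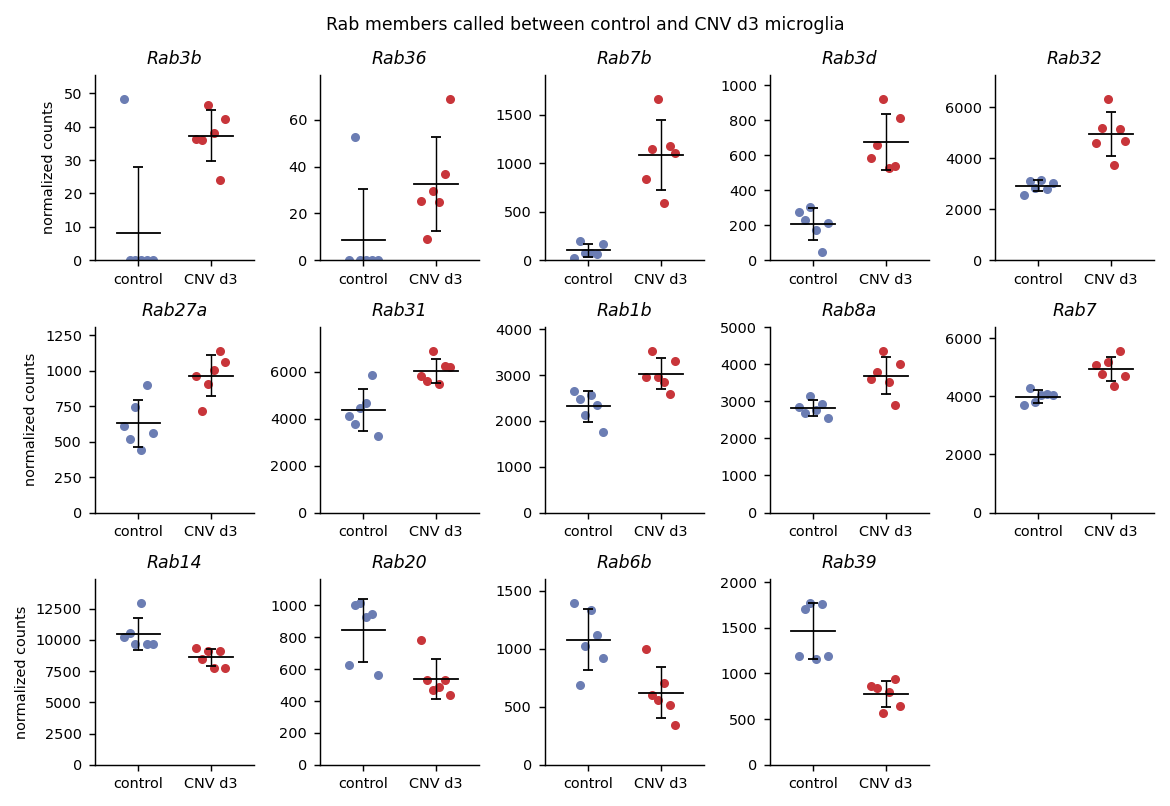
Normalized counts (y axis, from 0, with a scale of its own in each panel) of the 14 called Rab members in each of the 6 control samples (blue) and 6 CNV d3 samples (red), in replicate order from left to right, with mean and SD in black. Rab7b, Rab3d, Rab32 and Rab7 have no overlap between the groups upwards and Rab39 and Rab14 none downwards, while Rab3b and Rab36 have reads in only 1 control sample.

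Of the 10 members of early endosomes and phagosomes, 1 rose and 2 fell. Rab31, which works between the trans-Golgi network and endosomes, had lowest, median and highest values of 3261, 4283 and 5883 in control and 5471, 6013 and 6896 in CNV d3. Control 5 alone reached into the range of the lasered samples. The test gave a log2 fold change of 0.49 (SE 0.12, limma adjusted p = 0.0144), and the call was lost without CNV d3 4 to 6 (limma adjusted p = 0.1498). Rab20, a Rab of maturing phagosomes, had 564, 934 and 1014 in control and 441, 509 and 785 in CNV d3. Control 1, control 6 and CNV d3 1 lay in the range shared by both groups. The log2 fold change was -0.63 (SE 0.19, limma adjusted p = 0.0407), and E230013L22Rik overlaps 25.6% of its exon length on the opposite strand.

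Rab14, which moves cargo between early endosomes and the Golgi and also sits on phagosomes, had the most normalized counts of all members, with 9650.0, 9982 and 12942 in control and 7737, 8798 and 9323 in CNV d3. The groups did not overlap, and control 4 stood above the other controls. The resulting log2 fold change was -0.28 (SE 0.09), and the limma adjusted p of 0.0476 was close to the threshold. Rab14 was called only without control 3, control 5 or CNV d3 1 among the fits that left out 1 sample, and Rab20 only without control 1, control 6 or CNV d3 1, with a highest limma adjusted p of 0.101 and 0.0997. Neither was called without CNV d3 4 to 6, with limma adjusted p of 0.307 for Rab14 and 0.358 for Rab20. Rab22a, an endosomal relative of Rab31, just missed the threshold with a log2 fold change of 0.48 (SE 0.15, limma adjusted p = 0.0514), and passed it in the fit over the low filter. The 3 Rab5 genes, the organizers of the early endosome, were not called, with log2 fold changes of -0.16 (SE 0.15) for Rab5a, -0.19 (SE 0.16) for Rab5b and 0.48 (SE 0.29) for Rab5c.

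Of the 15 members of the ER, the Golgi and lipid droplets, 2 rose and 2 fell. Rab39, a Rab of Golgi and phagosome membranes, had 1196, 1704, 1769, 1163, 1763 and 1196 normalized counts in control 1 to 6 and 859, 841, 564, 801, 934 and 638 in CNV d3 1 to 6. All lasered samples lay below all controls, and the controls formed a lower and a higher set of 3 each. The mean was 1.90-fold higher in control, with a log2 fold change of -0.92 (SE 0.17, 95% interval -1.27 to -0.56, limma adjusted p = 0.00196). It was -0.95 without CNV d3 4 to 6 (limma adjusted p = 0.0420), and the gene was called in all 25 alternative fits. Rab6b, the form of the Golgi Rab6 that neurons favour, had lowest, median and highest values of 685, 1070.0 and 1393 in control and 344, 581 and 1002 in CNV d3. CNV d3 1 lay above control 2 and control 6, and CNV d3 4 lay above control 2. The fitted log2 fold change was -0.83 (SE 0.23, limma adjusted p = 0.0291), but among the fits that left out 1 sample it was called only without control 2 or CNV d3 1, and the highest limma adjusted p was 0.0885. It was not called without CNV d3 4 to 6 (limma adjusted p = 0.293). Its relative Rab6a had a log2 fold change of 0.13 (SE 0.13).

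Rab1b, which with Rab1a starts transport from ER to Golgi, had 1754, 2412 and 2657 in control and 2599, 2966 and 3529 in CNV d3. The overlap came from CNV d3 5, which lay below control 1. On the log2 scale the fold change was 0.39 (SE 0.12, limma adjusted p = 0.0345), and the call was lost when control 3, control 5, CNV d3 1, CNV d3 2, CNV d3 3 or CNV d3 6 was left out (highest limma adjusted p = 0.0752) and without CNV d3 4 to 6 (limma adjusted p = 0.121). Rab36, a little studied Rab of the Golgi and late endosomes, had 52.6 in control 2 and 0 reads in the other 5 controls, against 9.20 to 68.9 in CNV d3. Only CNV d3 6 exceeded that control. Its log2 fold change of 3.89 (SE 1.03, limma adjusted p = 0.0209) was lost without control 1, CNV d3 3, CNV d3 5 or CNV d3 6 (highest limma adjusted p = 0.0598) and without CNV d3 4 to 6 (limma adjusted p = 0.233), and neither edgeR (adjusted p = 0.361) nor DESeq2 (adjusted p = 0.391) called it.

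Of the 10 members of recycling and delivery to the plasma membrane, 1 rose. Rab8a, which delivers vesicles to the cell surface and, in macrophages, acts on macropinosomes, had 2540.0, 2801 and 3153 in control and 2896, 3695 and 4358 in CNV d3. Only CNV d3 5 lay within the control range. The test gave a log2 fold change of 0.38 (SE 0.10, limma adjusted p = 0.0214), and 0.47 without CNV d3 4 to 6 (limma adjusted p = 0.0171). Rab11a, Rab11b, Rab10, Rab35 and Rab12 had log2 fold changes between -0.15 (Rab12) and 0.12 (Rab11a) and were not called. None of the 5 members listed for the cilium and other sites was called. DESeq2 did call Rab42 lower, with a log2 fold change of -1.38 (DESeq2 adjusted p = 0.0202), and limma called Rab28 without control 4 or control 5. Over the 32 members that passed the low filter and were not called, the 95% interval of the log2 fold change lay within 1 of 0 for 21 and within 0.5 of 0 for 11, so changes of that size are outside the interval for these members and not for the rest.

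Close relatives were also compared by their share of the level they hold together. Rab6b made up 38.5% ± 8.17 of the summed Rab6a and Rab6b level per kb in control and 24.6% ± 6.62 in CNV d3 (SD, n = 6). Rab8a made up 28.8% ± 3.40 of Rab8a and Rab8b in control and 34.6% ± 4.12 in CNV d3. The shares of Rab1b among Rab1 genes, 35.9% ± 4.49 and 39.0% ± 3.93, and of Rab11b among Rab11 genes, 12.8% ± 1.70 and 12.0% ± 1.83, differed by less than the SD. These shares were not tested.

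**Figure D4:**
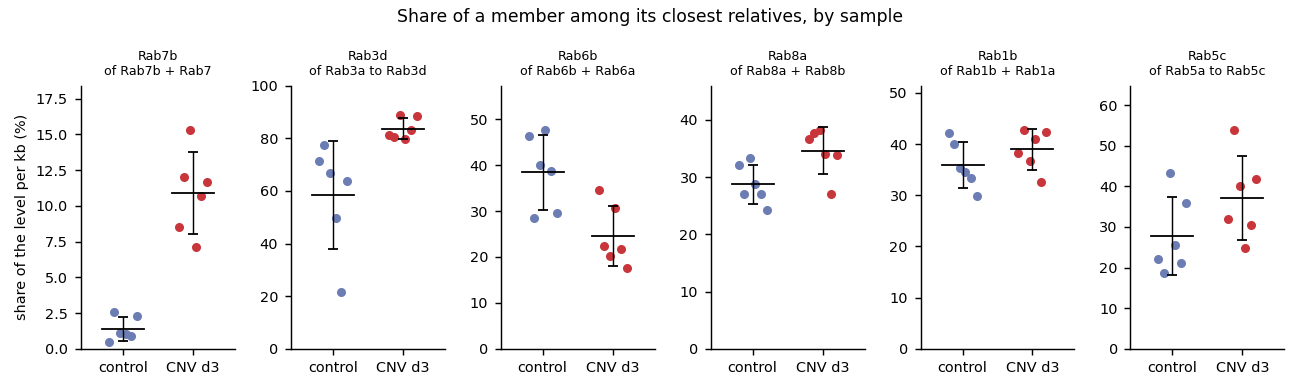
Share of a Rab member in the summed level per kb of its closest relatives (y axis, percent, scale of its own in each panel) in each control (blue) and CNV d3 (red) sample, with mean and SD in black. The Rab7b share went from 1.40% to 10.9% and the Rab3d share from 58.5% to 83.7%, while the Rab6b share fell from 38.5% to 24.6%, and only the Rab7b and Rab3d panels show no overlap.

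Genes that load, switch off, carry or read Rab proteins were described from a list of 117, of which 111 were in the table. Of these 10 rose (9.01%) and 9 fell (8.11%), beside 8.29% and 4.57% of all genes. In the fit over the low filter, which 100 of the 111 passed, 12 rose and 11 fell, beside 16.9% and 12.1% of genes. Rab proteins need a lipid anchor from Rab geranylgeranyl transferase and are drawn from membranes by GDP dissociation inhibitors, and none of the 5 genes of this kind given here was called. The log2 fold change was -0.05 (SE 0.23) for Rabggta, 0.50 (SE 0.26) for Rabggtb, -0.35 (SE 0.19) for Chm and 1.43 (SE 1.10) for Chml. It was 0.28 (SE 0.09, limma adjusted p = 0.0501) for the inhibitor Gdi2, which had 14021 to 19996.5 normalized counts in control and 17802 to 22390.3 in CNV d3.

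Of the 111 regulators 4 were DEG, all higher, beside 3.91% of all genes. Lrrk2, the kinase that phosphorylates Rab8a and Rab10 among others, had 0 reads in all 6 controls and 10.3, 18.4, 77.0, 3.46, 71.3 and 45.7 normalized counts in CNV d3 1 to 6. Against the value of 3 reads in the shallowest control sample its mean was at least 6.33-fold higher (limma adjusted p = 0.00108). CNV d3 4 was the lowest for this gene as well. Tbc1d2, which inactivates Rab7, had 7.51 in control 1 and 0 in the other controls, against 6.06 to 40.7 in CNV d3 (log2 fold change 3.92, SE 0.81, limma adjusted p = 0.00487). Tbc1d30, another TBC protein, had 0 to 15.2 and 17.0 to 72.4 (log2 fold change 3.73, SE 0.90, limma adjusted p = 0.0118). Ric1, a subunit of the exchange factor of Rab6, had 25.3 to 267 and 218 to 442 (log2 fold change 1.84, SE 0.47, limma adjusted p = 0.0165). The means of Lrrk2, Tbc1d2 and Tbc1d30 in CNV d3 were only 37.7, 26.3 and 41.9 normalized counts, and edgeR did not call Tbc1d30 (adjusted p = 0.0787).

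The remaining 15 called regulators were named after their values were seen. The GTPase-activating protein Tbc1d16 rose from 297 to 869 up to 1461 to 1947, with a log2 fold change of 1.36 (SE 0.23, limma adjusted p = 0.00111), and Tbc1d9b, Madd, Dennd5a, Sbf1 and Rufy1 rose by 0.47 to 0.60. Madd is an exchange factor of Rab3 and Rab27 proteins and had 984 to 1529 in control and 1384 to 2172 in CNV d3 (limma adjusted p = 0.0281). Rabac1, a Golgi protein that binds prenylated Rab proteins, had 3929.7 to 5675 in control and 1798 to 2904 in CNV d3 without overlap, with a log2 fold change of -1.08 (SE 0.13, limma adjusted p = 0.000133). Mlph, which ties Rab27a to a myosin motor, had a log2 fold change of -1.02 (SE 0.29, limma adjusted p = 0.0298). Rab11fip2, Dennd2c, Evi5, Tbc1d5, Tbc1d10a, Dennd6a and Rab3il1 fell by 0.38 to 0.92 on the log2 scale. Without CNV d3 4 to 6, 2 regulators rose and 4 fell, in a fit whose share over all genes is not given.

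**Figure D5:**
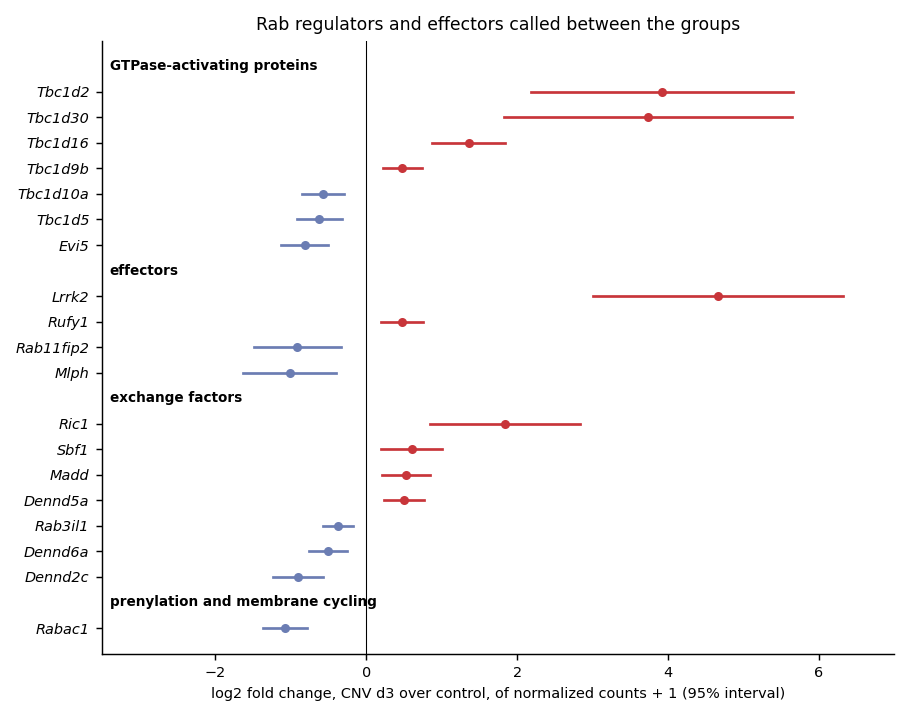
Log2 fold change of CNV d3 over control (points) with the 95% interval from limma (lines) for the 19 Rab regulators and effectors that were called, grouped by kind, with red for higher and blue for lower in CNV d3. Lrrk2, Tbc1d2 and Tbc1d30 have the largest values and the widest intervals, and Rabac1 has the lowest value at -1.08.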

How the data were processed

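The authors made cDNA from sorted cells by template switching and PCR, mapped single reads with STAR 2.7.2b to the mouse genome with GENCODE M25, counted reads per gene with featureCounts 1.6.4 at default settings, which do not use strand, and divided the counts by DESeq2 1.22.2 size factors. The deposited signal is therefore a normalized count, and the deposited fold changes and adjusted p-values of the authors' own comparison were not used. In every sample all values (100%) could be written as a whole number of reads, at a tolerance of 0.01, so reads could be recovered. Tests used the whole table of 27299 genes, except the fits over the low filter and a fit of protein-coding genes only. These were adjusted over their own genes. The main test was limma 3.58.1 in R 4.3.3 on log2(normalized counts + 1) with a variance trend and Benjamini-Hochberg adjustment. Fold changes of low genes depend on the pseudocount and can be smaller or, where a group holds zeros, larger than those of the count models. The exact permutation test, given for Rab3d, compared group means of log2(normalized counts + 1) and was computed with numpy 2.4.6. Alternatives on the recovered reads were edgeR 4.0.16, whose quasi-likelihood test called 12 members, and DESeq2 1.42.0, which called 16, against 14 with limma. DESeq2 called Rab21, Rab22a, Rab42 and Rab4b in addition to limma calls, and did not call Rab36 and Rab3b. The share of all genes called with edgeR or DESeq2 is not given.

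Read totals were 10963178 to 29523018 per sample, and the detection floor was set at 3 reads, which covers counting error only since PCR copies carry no molecular identifiers. The 6 control and 6 CNV d3 samples were grouped by label, and samples listed in 2 parts were counted once. Levels per kb used GENCODE M21 exon lengths on GRCm38, and 27238 genes matched by Ensembl identifier. Named by rule were members that were called or DEG, the 5 highest per kb in control, the Rab3 genes, and the regulators that were DEG or act in prenylation or GDP dissociation, of which some results are not reported here. The members and all lists, which place each Rab at 1 site although many act at several, were chosen with earlier results of these data known. The plain limma, edgeR and DESeq2 fits were tested on simulated data. Their variants, such as other scalings, filters, blocks, covariates or left-out samples, were not. The fits with Ddx3y and edgeR with a filter were added after seeing the data.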

Additional observations from a re-analysis of the deposited data

Results flagged for a closer look

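Only the 20 members named by rule were screened for samples far from the others. In 6 of 40 groups of 6 samples, 1 sample lay far off, by a gap that exceeded the critical value of Dixon's test. For normally distributed values chance alone does this in about 1 group in 20. That rate need not hold for genes with few reads and many zeros, so an excess cannot be judged from it. Rab3b had 48.3 normalized counts in control 1 and Rab36 had 52.6 in control 2, each with 0 in the other 5 controls. Rab3c had 84.2 in control 4, where the next value was 29.0, and 46.7 in CNV d3 4, where the next was 9.60. Rab14 had 12942 in control 4, where the next was 10534, and Rab20 had 785 in CNV d3 1, where the next was 532.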

How the results depend on the processing

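Against 10 members higher, 4 lower and 4 DEG, leaving out 1 sample gave 7 to 11 higher, 1 to 4 lower and 3 to 5 DEG, 7 to 13 regulators higher and 7 to 10 lower. The log2 fold change of Rab3d was 1.49 to 2.03 in these fits. Only 1 member was lower without control 4 or CNV d3 2, 3, 4, 5 or 6. TMM scaling left 2 lower members, and edgeR, edgeR with the low filter (added after seeing the data) and DESeq2 left 2 DEG, Rab7b and Rab3d. Using only CNV d3 1 to 3 (also added) gave 4 members higher, 1 lower and 1 DEG, and 2 regulators higher and 4 lower, with fewer samples, and Rab3d kept its log2 fold change at 1.98 and lost its call. With Ddx3y reads as a covariate (also added) 5 members were higher and 1 lower, and 4 regulators were higher and 5 lower. Both fits give the same log2 fold changes and differ in their errors. The share of all genes called is not given for these or the other fits of this section. Fewer or more calls therefore cannot be read as particular to Rab genes. The cause of these differences was not tested. Both Rab8b and Rab3c, not called, changed sign. Rab8b was 0.0068 with TMM, 0.0179 with library totals, 0.0039 with edgeR and -0.0515 to 0.0271 with 1 sample left out, positive without control 2, 5 or 6 or CNV d3 1 or 2, and Rab3c was -0.70 to 0.68 with 1 sample left out, positive without control 1 or 4 or CNV d3 3 or 6. With the replicate number as a block, 9 members were called, 7 higher and 2 lower, among them 8 of the 14, and Rab22a in addition. Deviations of samples with the same number correlated between -0.019 and 0.051, and 1 of 6 CNV d3 samples correlated best with its own number. These values show no pairing by number, but correlations over 6 pairs cannot decide whether the samples were paired. Depth limits what could be seen of the 11 members under the low filter.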
